A study of Homo sapiens with 8 samples.

Results

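Collagens and the genes that process them were examined in 769-P and CAKI-1 cells cultured with or without branched-chain amino acids (BCAA). The members are the protein-coding genes named COL with a number, plus the lysyl oxidases LOX and LOXL1 to LOXL4, the lysyl hydroxylases PLOD1 to PLOD3, the prolyl 4-hydroxylase subunits P4HA1 to P4HA3 and P4HB, the chaperone SERPINH1, the proteinase BMP1 and its enhancer PCOLCE. This gives 59 genes in GENCODE 29, of which 44 are collagens and 15 are processing genes, among 27776 genes listed in either table. COL4A3BP, an older symbol of a ceramide transfer gene, is no collagen and was left out. In 769-P, 53 members were listed and 47 had a mean value of at least 1 and were tested, out of 22391 genes tested. In CAKI-1, 50 were listed and 46 tested, out of 21347 genes. Tested in either line were 53 members, and 40 were tested in both.

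The study asked how BCAA supply changes the transcriptome of renal cell carcinoma (RCC) cells. Both lines are established human RCC lines. Cells were kept for 16 hours in medium made from an amino acid-free RPMI powder with dialyzed serum, to which the BCAA group received isoleucine at 0.38 mM, leucine at 0.38 mM and valine at 0.17 mM. Each of the 4 groups (769-P BCAA, 769-P no BCAA, CAKI-1 BCAA and CAKI-1 no BCAA) has 2 libraries, and no source used here says that they came from separate cultures, so the p-values measure only the spread between these libraries, which may be technical. All values are normalized reads, the reads of a gene divided by a size factor of its library.

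Library depth, as reads on listed genes, ran from 30979773 to 64256834. In 769-P both libraries with BCAA were deeper (64256834 and 55829324 reads) than both without (39062721 and 40130258), and the part of depth in the results was not tested beyond thinning all libraries to equal reads. Of 6 renal markers (PAX8, PAX2, KRT8, KRT18, CA9 and EPCAM), 5 had reads in 769-P and 4 in CAKI-1. CA9, which clear cell RCC usually carries, was not listed in either line, and PAX2 was not listed in CAKI-1. Of 5 fibroblast markers, 4 had reads in 769-P, where their summed value was 154 to 157 with BCAA and 34.8 to 52.6 without, nearly all of it PDGFRB. CAKI-1 had reads for all 5, with sums of 3971 to 4156 with BCAA and 3682 to 3732 without, led by LUM. Sums of the 4 endothelial and of the 4 leukocyte markers stayed at or below 15.8 in every library. Of the fibroblast markers, PDGFRB alone was called, higher with BCAA by 1.88 on the log2 scale in 769-P and by 0.58 in CAKI-1 (limma, adjusted p = 8.36e-05 and 0.00636). In CAKI-1, LUM overlapped between groups and DCN was not called (-0.68). Its part in the results was not tested. In bulk RNA, fewer cells of a type and less RNA per cell cannot be told apart.

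Collagens are trimers of chains that carry a regular repeat of glycine and many prolines that are hydroxylated in the endoplasmic reticulum so that the triple helix is stable. Prolyl 4-hydroxylase does this as a complex of an alpha subunit with P4HB, lysyl hydroxylases modify lysines for later crosslinks, SERPINH1 (HSP47) guards the folded helix, BMP1 removes the C-propeptide and lysyl oxidases crosslink the chains outside the cell. Fibrillar collagens build the stroma, while collagen IV and collagen XVIII belong to the basement membrane on which renal epithelium rests.

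In 769-P, 12 of the 47 members tested were higher with BCAA, 14 were lower and 21 were not called (limma on log2(value + 1), Benjamini-Hochberg adjusted p under 0.05). That is 55.3% of the members, beside 38.4% of all genes tested, with 20.3% of all genes higher and 18.2% lower. The members' median log2 fold change was -0.05, beside -0.02 over all genes. In CAKI-1, 12 of 46 members were higher, 8 were lower and 26 were not called, which is 43.5% beside 19.9% of all genes (10.8% higher and 9.05% lower), and the median was 0.17 beside -0.01. The libraries with BCAA did not overlap those without for 37 members in 769-P and 34 in CAKI-1, where 67% and 57.7% of all genes did not overlap. All fold changes are on the log2(value + 1) scale, on which the change of a low gene is understated. Changes that were called and at least 2-fold were seen for 7 members in 769-P (4 higher and 3 lower) and 0 in CAKI-1, beside 8.75% and 2.1% of all genes. In 769-P, fewer members were called with 1 library left out and the other 3 fitted, and fewer of all genes were called as well. These fits were repeated with the spread taken from the 7 other libraries of both lines. In neither kind of fit did a called member change sign. In CAKI-1, leaving out any 1 library and fitting the other 3 took the limma call from every member and from every gene tested. That loss is therefore not particular to the members. These 4 fits are among the alternatives counted for a call below, so every CAKI-1 call of a member was lost under at least 4 of them. With the spread from the 7 others, 4 to 7 members were called higher and 5 to 7 lower, of 40, beside 1918 to 2497 genes higher and 1528 to 2191 lower of all 19406.

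**Figure D1:**
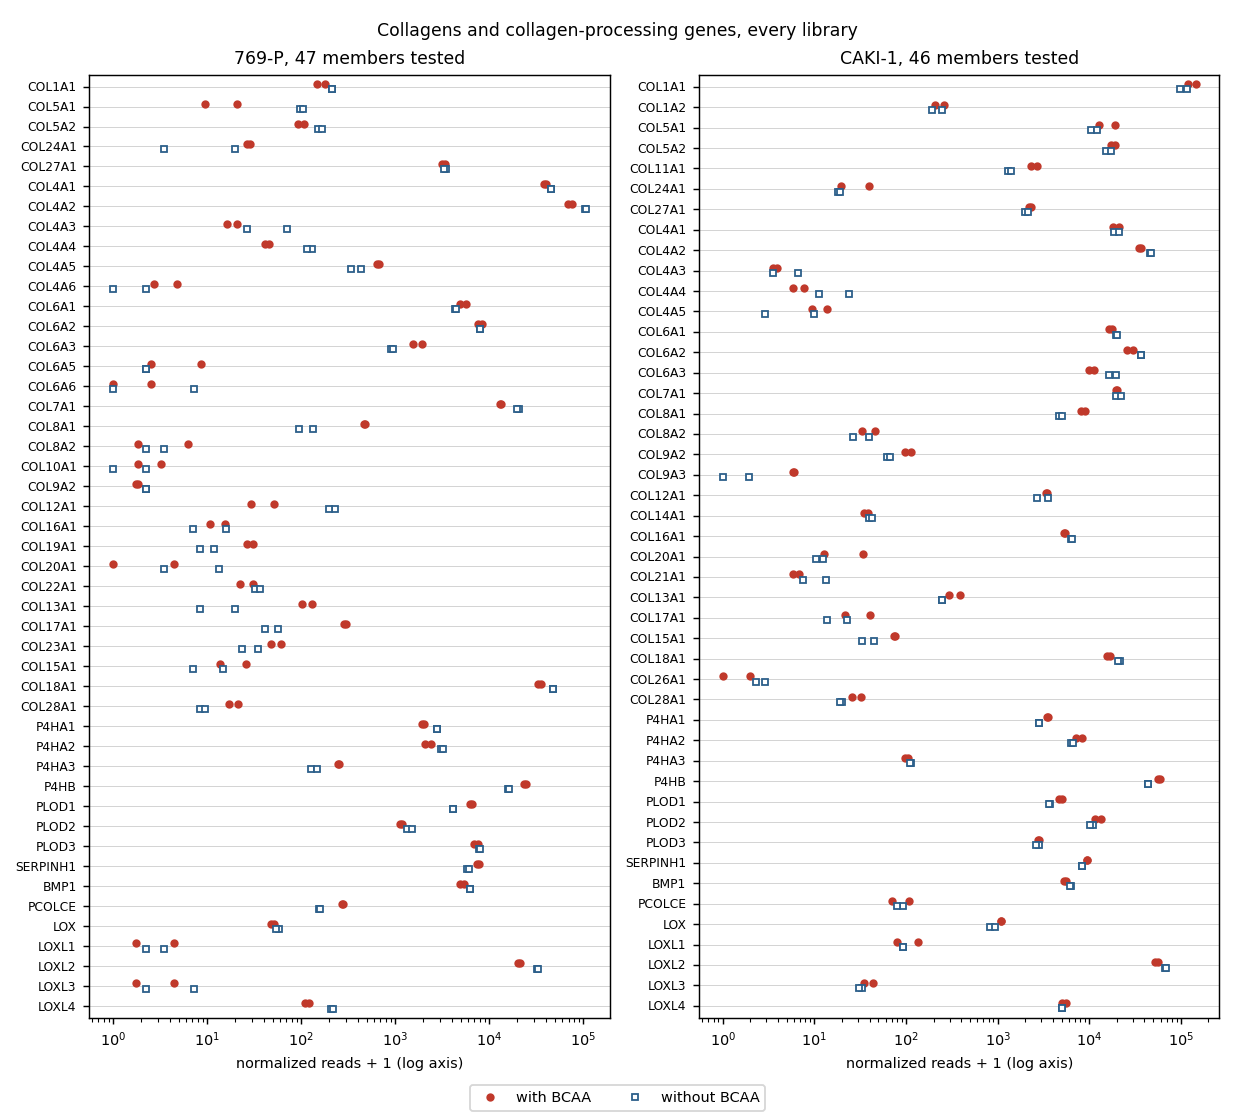
Normalized reads plus 1 of every tested member in each library, on a log axis, for 769-P (47 members) and CAKI-1 (46 members), ordered by role. Filled circles are the 2 libraries with BCAA and open squares the 2 without. COL13A1, COL17A1 and COL8A1 lie to the right with BCAA in 769-P, and COL5A1 and COL12A1 lie to the left.

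The leading collagens differed by line. Collagen genes took 0.386% and 0.361% of the reads in 769-P with BCAA, and 0.487% and 0.489% without. In CAKI-1 they took 0.901% and 0.818% with BCAA, and 0.809% and 0.885% without, so the groups overlapped there and did not in 769-P. COL4A2, a chain of basement membrane collagen IV, held 39.9% to 44.8% of the collagen reads of each 769-P library. COL1A1, the main chain of fibrillar collagen I, held 30.8% to 40.9% in CAKI-1. Per kilobase of exon, the members with the highest mean level in 769-P were COL18A1 at 4824 normalized reads, LOXL2 at 4693 and COL4A2 at 4623, and in CAKI-1 they were COL1A1 at 12246, LOXL2 at 10745 and P4HB at 9514. The tables were normalized separately, so these levels order genes within a line only. COL18A1 shares exon sequence with SLC19A1 on the opposite strand, LOXL2 with ENTPD4 on the same strand, and P4HB and P4HA2 with antisense genes, and no source used here says whether counting used strand. Reads from these partners could not be told apart.

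Fibrillar collagens form the fibres of the stroma. Of the 11 genes, 5 were tested in 769-P, with 0 higher and 2 lower, and 7 in CAKI-1, with 3 higher and 0 lower. COL5A1, a chain of the collagen V that starts fibrils, had 19.7 and 8.55 normalized reads with BCAA in 769-P and 95.6 and 103 without. Both values with BCAA lay far below both without, a log2 fold change of -2.83 (SE 0.41, adjusted p = 0.000129). The values of COL5A1 with BCAA rested on 26 and 10 reads. With 1 library left out its 769-P log2 fold change ran from -3.39 to -2.27. In CAKI-1 the same gene had 18853 and 12758 with BCAA and 10334 and 12120 without (log2 fold change 0.47, SE 0.14, adjusted p = 0.035). This CAKI-1 call was lost under 15 of 20 alternatives, among them quantile normalization, thinned reads, DESeq2 and the removal of each CAKI-1 library. Without the library with 18853 the log2 fold change of COL5A1 was 0.19. Its partner COL5A2 had 92.5 and 107 with BCAA in 769-P and 152 and 168 without, a log2 fold change of -0.67 (SE 0.19, adjusted p = 0.0137). The call of COL5A2 in 769-P was lost under 5 of 20 alternatives. These were thinning of all libraries to equal reads and the fits within the line without each 769-P library in turn. In CAKI-1 COL5A2 was not called (0.17, 95% confidence interval 0.01 to 0.32).

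COL1A1 was the most abundant collagen of CAKI-1, with 145196 and 120846 normalized reads with BCAA and 98609 and 116332 without. Its groups did not overlap, but the log2 fold change of 0.31 (SE 0.10, adjusted p = 0.0427) was close to the threshold, and the call was lost under 15 of 20 alternatives. Without the first library with BCAA the adjusted p was 0.345, and without the first library without BCAA it was 0.32, both with the spread from the 7 other libraries. In 769-P, COL1A1 had 178 and 145 with BCAA and 215 and 213 without, and was not called (-0.41, adjusted p = 0.0686). COL1A2, the other chain of collagen I, had 257 and 209 with BCAA in CAKI-1 and 192 and 244 without, which overlap. In 769-P it had 2 reads in the first library with BCAA and 0 in the other three. Per exon length, COL1A1 stood at 541 to 657 times the level of COL1A2 in CAKI-1. COL11A1, a minor fibrillar chain, had 2672 and 2307 with BCAA in CAKI-1 and 1292 and 1385 without (0.89, SE 0.08, adjusted p = 3.24e-05), and was too low for a test in 769-P. COL24A1 and COL27A1 were not called in either line, and COL3A1 did not reach a mean of 1 in either.

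Collagen IV forms the network of the basement membrane, as heterotrimers of its 6 chains. In 769-P all 6 were tested, with 1 higher and 3 lower, and in CAKI-1 5 were tested, with 0 higher and 1 lower. COL4A2 had 76702 and 68780 normalized reads with BCAA in 769-P and 103756 and 107541 without (log2 fold change -0.54, SE 0.05, adjusted p = 2.9e-06). In CAKI-1 it had 36823 and 35254 with BCAA and 45529 and 47312 without (-0.37, SE 0.06, adjusted p = 0.000894). COL4A2 was lower with BCAA in all 4 libraries that received it. COL4A1, which is transcribed away from COL4A2 from a shared promoter region, had 40722 and 38468 in 769-P with BCAA and 45454 and 46017 without (-0.21, SE 0.04, adjusted p = 0.00119). With the spread from the 7 other libraries the COL4A1 call was lost without any 1 of the 4 libraries, at adjusted p-values of 0.0599 to 0.205. In CAKI-1 COL4A1 overlapped between groups (21264 and 18098 with BCAA, 18461 and 21152 without). The ratio of COL4A1 to COL4A2 per exon length was therefore higher with BCAA in both lines, at 0.695 and 0.732 against 0.573 and 0.560 in 769-P, and 0.756 and 0.672 against 0.531 and 0.585 in CAKI-1. This ratio was not tested.

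The 126 bases between the RefSeq starts of COL4A1 and COL4A2 are shown because both genes start from them in opposite directions (build GRCh38.p14, capitals mark a CCAAT box).
COL4A1 to COL4A2 (chr13:110307158-110307283, plus strand): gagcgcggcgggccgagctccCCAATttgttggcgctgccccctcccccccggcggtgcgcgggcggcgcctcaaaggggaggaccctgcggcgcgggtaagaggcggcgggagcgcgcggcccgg

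The other collagen IV chains had fewer reads. COL4A4, of the glomerular network, had 44.7 and 40.2 with BCAA in 769-P and 129 and 114 without (-1.49, SE 0.25, adjusted p = 0.000375). Its call was lost without each of 3 of the 4 libraries, both with BCAA and the first without, with the spread from the 7 others. That spread took in CAKI-1, where COL4A4 had 4.86 and 6.66 with BCAA and 22.8 and 10.3 without. COL4A5, encoded on the X chromosome, moved the other way in 769-P, with 640 and 670 with BCAA and 342 and 429 without (0.77, SE 0.12, adjusted p = 0.000211). With the spread from all 8 libraries its adjusted p in limma was 0.197. The call of COL4A5 was also lost without each 769-P library in turn, with the spread from the 7 others. Both spreads took in CAKI-1, where COL4A5 had 12.6 and 8.32 with BCAA and 1.90 and 9.01 without. Its 769-P log2 fold change stayed between 0.61 and 0.94 under all 20 alternatives. COL4A3 and COL4A6 were not called in 769-P, and COL4A3, COL4A4 and COL4A5 were not called in CAKI-1.

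Collagen VI, which forms beaded filaments around cells, had a pair of chains, COL6A1 and COL6A3, called in opposite directions in the lines. COL6A3 had 1911 and 1544 with BCAA in 769-P and 912 and 960 without (0.88, SE 0.09, adjusted p = 1.13e-05). Its CAKI-1 values were 11404 and 9977 with BCAA and 16435 and 19778 without (-0.76, SE 0.09, adjusted p = 0.000149). The groups did not overlap in either line, and the effect was 1.63 larger on the log2 scale in 769-P (interaction in limma, 95% confidence interval 1.33 to 1.94, adjusted p = 3.28e-06). COL6A1 was called higher in 769-P (0.26) and lower in CAKI-1 (-0.22), and both of these calls were lost with quantile normalization and with thinned reads, among others. COL6A2 was lower in CAKI-1 (-0.39, SE 0.07, adjusted p = 0.00177), with an adjusted p of 0.0503 after quantile normalization, and was not called in 769-P (-0.02). Interaction terms were called for COL6A1 (0.49) and COL6A2 (0.37) as well, so all 3 main chains of collagen VI differed in response between the lines.

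COL8A1, a short-chain collagen of vessel walls and of Descemet's membrane, was higher with BCAA in both lines. It had 470 and 481 with BCAA in 769-P and 93.2 and 132 without (2.09, SE 0.17, adjusted p = 1.2e-06). The CAKI-1 libraries held 9086 and 8089 with BCAA and 4674 and 5006 without (0.83, SE 0.07, adjusted p = 1.41e-05). The effect was larger in 769-P by 1.26 (95% confidence interval 0.89 to 1.64, interaction adjusted p in limma 0.00017). COL7A1, which makes the anchoring fibrils of skin, had 13279 and 12919 with BCAA in 769-P and 20962 and 19998 without (-0.64, SE 0.04, adjusted p = 1.69e-07), while its groups overlapped in CAKI-1 (-0.08), with an interaction of -0.57 (95% confidence interval -0.73 to -0.40).

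The transmembrane collagens COL13A1 and COL17A1 had the largest rises of any members in 769-P. COL13A1, a collagen of cell-matrix adhesions, had 130 and 103 normalized reads with BCAA and 18.6 and 7.34 without (3.19, SE 0.42, adjusted p = 6.85e-05), a fitted 9.12-fold rise. Its values without BCAA rested on 15 and 6 reads, and with 1 library left out its log2 fold change ran from 2.57 to 3.81. COL17A1, which anchors keratinocytes in hemidesmosomes, had 282 and 298 with BCAA and 55.9 and 40.4 without (2.58, SE 0.21, adjusted p = 1.23e-06), a fitted 5.99-fold rise. Neither gene overlapped between groups in 769-P. In CAKI-1, COL13A1 had 295 and 383 with BCAA and 249 and 248 without and was not called (0.43, adjusted p = 0.0628), and COL17A1 overlapped between groups (39.9 and 20.8 against 21.9 and 12.9). The difference between lines was called for both, at 2.76 for COL13A1 (95% confidence interval 1.76 to 3.75) and 1.84 for COL17A1 (0.71 to 2.97).

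The 250 bases before the RefSeq starts of COL13A1, COL17A1 and COL12A1 are shown, which were among the members with the largest changes in 769-P (build GRCh38.p14). Capitals mark CCAAT in COL17A1 and the letters ACGTG, the core of the hypoxia response element, in COL12A1, read on either strand. COL13A1 holds none of the 4 motifs searched.
COL13A1 (chr10:69801656-69801905, plus strand): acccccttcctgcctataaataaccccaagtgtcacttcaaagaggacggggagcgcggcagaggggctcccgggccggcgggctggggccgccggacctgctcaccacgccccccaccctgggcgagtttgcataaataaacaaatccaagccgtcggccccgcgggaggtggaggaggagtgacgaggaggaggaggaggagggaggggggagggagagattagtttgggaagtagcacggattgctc
COL17A1 (chr10:104085881-104086130, minus strand): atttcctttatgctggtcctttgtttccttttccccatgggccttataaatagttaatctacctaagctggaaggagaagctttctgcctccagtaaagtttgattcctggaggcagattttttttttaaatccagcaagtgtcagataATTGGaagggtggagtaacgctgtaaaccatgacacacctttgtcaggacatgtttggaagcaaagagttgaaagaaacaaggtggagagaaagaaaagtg
COL12A1 (chr6:75206054-75206303, minus strand): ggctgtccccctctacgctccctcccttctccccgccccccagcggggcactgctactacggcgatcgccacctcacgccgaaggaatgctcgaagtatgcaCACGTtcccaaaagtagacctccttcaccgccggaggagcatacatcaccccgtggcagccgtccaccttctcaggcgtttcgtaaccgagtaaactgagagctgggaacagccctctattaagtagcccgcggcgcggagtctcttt

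FACIT collagens sit on the surface of fibrils. COL12A1 had 50.8 and 28.2 with BCAA in 769-P and 226 and 199 without (-2.45, SE 0.28, adjusted p = 1.88e-05). In CAKI-1 its groups overlapped (3447 and 3375 against 2670 and 3561), and the effects differed by -2.60 between the lines (95% confidence interval -3.22 to -1.98). COL19A1 was higher in 769-P, with 29.6 and 25.7 against 7.45 and 11.0 (1.503, SE 0.48, adjusted p = 0.0269), a call lost with no filter on low values, with thinned reads and in DESeq2. COL16A1 was lower in CAKI-1 (-0.25) and not called in 769-P. Its CAKI-1 call was lost under 9 of 20 alternatives, among them the spread from all 8 libraries and the removal of each CAKI-1 library in turn. The spread from 8 libraries took in 769-P, where COL16A1 had 9.86 and 14.5 with BCAA and 14.9 and 6.11 without. Its CAKI-1 log2 fold change stayed between -0.31 and -0.23 under all 20. In all, 1 of 6 tested FACIT genes was higher and 1 lower in 769-P, and 0 of 7 higher and 1 lower in CAKI-1.

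Multiplexins are basement membrane collagens with a cleavable end. COL18A1, the source of endostatin, was lower with BCAA in both lines. It had 35770 and 32847 with BCAA in 769-P and 48052 and 47832 without (-0.48, SE 0.04, adjusted p = 3.05e-06). For CAKI-1 the values were 15636 and 16649 with BCAA and 21714 and 20505 without (-0.39, SE 0.06, adjusted p = 0.000801). The groups did not overlap in either line, and the interaction was not called (-0.10, 95% confidence interval -0.26 to 0.07). COL15A1 rose in CAKI-1 from 43.7 and 32.2 to 73.9 and 74.1 (0.96, SE 0.29, adjusted p = 0.0366). Its call was lost under 13 of 20 alternatives, among them quantile normalization, thinned reads, DESeq2 and the removal of each CAKI-1 library.

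**Figure D2:**
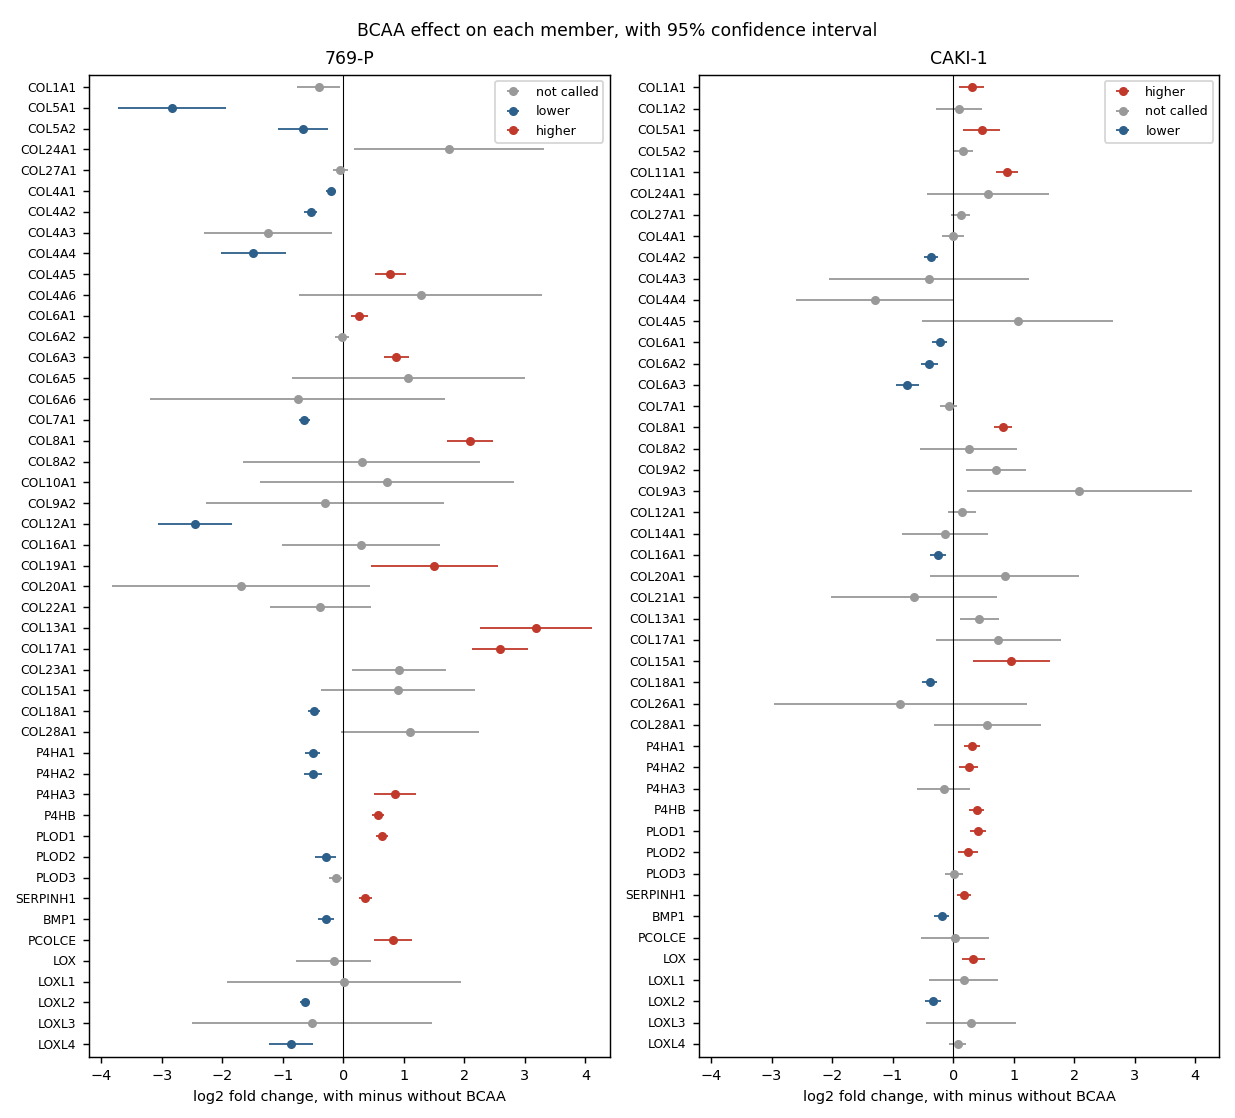
Log2 fold change with BCAA minus without for each tested member in 769-P and CAKI-1, with 95% confidence intervals from limma, ordered by role. Red points were called higher, blue lower and grey not called. The intervals of COL5A1 and COL12A1 lie wholly below 0 in 769-P, and those of COL13A1, COL17A1 and COL8A1 wholly above it.

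Of the 4 prolyl 4-hydroxylase subunits, 2 were higher and 2 lower with BCAA in 769-P, and 3 were higher and 1 not called in CAKI-1. P4HB, the beta subunit that also acts as protein disulfide isomerase, had 24797 and 23312 with BCAA in 769-P and 16038 and 16301 without (0.57, SE 0.04, adjusted p = 5.29e-07). In CAKI-1 it had 55965 and 58532 with BCAA and 43776 and 43546 without (0.39, SE 0.06, adjusted p = 0.000554). P4HB was therefore higher with BCAA in every library of both lines. The catalytic subunit P4HA1 had 1937 and 2035 with BCAA in 769-P and 2827 and 2820 without (-0.51, SE 0.06, adjusted p = 1.64e-05), and 3454 and 3523 against 2815 and 2836 in CAKI-1 (0.30, SE 0.06, adjusted p = 0.0042). P4HA2 had 2386 and 2078 with BCAA in 769-P and 3111 and 3215 without (-0.51, SE 0.07, adjusted p = 7.9e-05). Its CAKI-1 values were 7164 and 8272 against 6297 and 6622 (0.25, SE 0.07, adjusted p = 0.0278). This call was lost under 10 of 20 alternatives, among them no filter on low values, quantile normalization and thinned reads. Without 1 library the log2 fold change of P4HA2 in CAKI-1 ran from 0.15 to 0.36. The effects differed between the lines by -0.81 for P4HA1 (95% confidence interval -0.98 to -0.65) and by -0.76 for P4HA2 (-0.99 to -0.53). P4HA3, the least abundant alpha subunit in both lines per exon length, had 251 and 244 with BCAA in 769-P and 127 and 147 without (0.85, SE 0.16, adjusted p = 0.000904) and was not called in CAKI-1 (-0.16).

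Per exon length, P4HA1 stood at 0.134 and 0.150 of P4HB with BCAA in 769-P and at 0.302 and 0.297 without. In CAKI-1 this ratio was 0.106 and 0.103 with BCAA and 0.110 and 0.112 without. P4HA2 stood at 0.0600 and 0.0556 of P4HB with BCAA in 769-P and at 0.121 and 0.123 without. Both alpha subunits stood lower against the beta subunit with BCAA in 769-P, and the ratios were not tested.

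**Figure D3:**
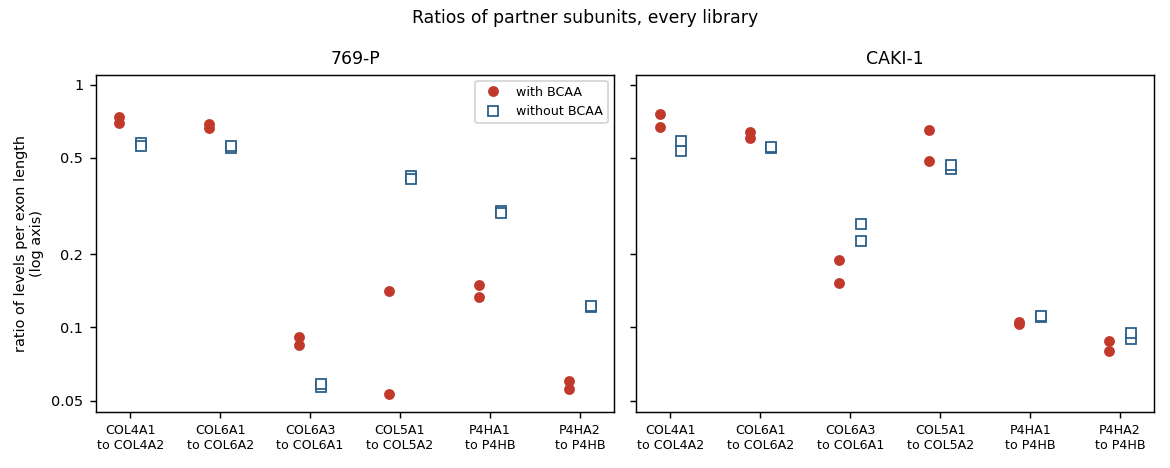
Ratios of partner chains or subunits per exon length in each library, on a log axis, for 769-P and CAKI-1. Circles are libraries with BCAA and squares libraries without. P4HA1 to P4HB was 0.134 and 0.150 with BCAA and 0.302 and 0.297 without in 769-P, while COL4A1 to COL4A2 was higher with BCAA in both lines.

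Lysyl hydroxylases prepare the sites for crosslinks. PLOD1 was higher with BCAA in both lines, with 6572 and 6224 against 4100 and 4130 in 769-P (0.64, SE 0.05, adjusted p = 6.73e-07). The CAKI-1 libraries held 5018 and 4733 against 3698 and 3669 (0.40, SE 0.06, adjusted p = 0.000738). PLOD2, which modifies the telopeptides, had 1191 and 1138 with BCAA in 769-P and 1325 and 1530 without (-0.29, SE 0.08, adjusted p = 0.0121). For CAKI-1 the values were 11615 and 13505 against 10896 and 10228 (0.25, SE 0.07, adjusted p = 0.0337). The directions were opposite, and the interaction was -0.54 (95% confidence interval -0.78 to -0.30). The 769-P call of PLOD2 was lost under 7 of 20 alternatives, among them no filter on low values. Its CAKI-1 call was lost under 11 of 20, among them a pseudocount of 0.1, no filter, quantile normalization and thinned reads. With the spread from the 7 other libraries, the 769-P call was lost without the second library of either group. The CAKI-1 call was lost in that way without any library but the first with BCAA. PLOD3 was not called in either line.

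The windows of 250 bases of the 3 enzyme genes that stand for these patterns are shown, with CCAAT and ACGTG in capitals on either strand. P4HA1 and PLOD2 fell in 769-P and rose in CAKI-1, and P4HB rose in both.
P4HA1 (chr10:73096867-73097116, minus strand): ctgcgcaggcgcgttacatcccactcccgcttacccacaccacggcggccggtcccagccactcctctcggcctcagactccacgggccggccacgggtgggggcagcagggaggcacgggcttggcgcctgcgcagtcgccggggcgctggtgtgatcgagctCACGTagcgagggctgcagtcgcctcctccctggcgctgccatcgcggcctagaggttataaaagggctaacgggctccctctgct
PLOD2 (chr3:146161185-146161434, minus strand): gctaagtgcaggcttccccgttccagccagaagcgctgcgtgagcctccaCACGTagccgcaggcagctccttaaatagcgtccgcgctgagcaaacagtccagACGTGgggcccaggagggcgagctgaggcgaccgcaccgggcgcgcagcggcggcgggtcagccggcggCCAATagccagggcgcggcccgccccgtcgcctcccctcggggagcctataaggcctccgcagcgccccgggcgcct
P4HB (chr17:81860536-81860785, minus strand): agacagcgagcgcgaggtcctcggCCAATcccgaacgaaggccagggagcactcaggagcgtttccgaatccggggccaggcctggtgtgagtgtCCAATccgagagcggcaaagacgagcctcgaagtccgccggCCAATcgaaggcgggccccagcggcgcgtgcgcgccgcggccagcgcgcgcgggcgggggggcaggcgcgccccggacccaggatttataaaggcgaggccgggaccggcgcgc

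A RefSeq window was matched for 44 of the 59 members, as 60 windows among 35116. The letters ACGTG stood in 21.7% of the member windows and 18.5% of all windows, and CCAAT in 28.3% and 32.0%. CAGGTG, an E-box that factors of the SNAIL family bind, stood in 16.7% of the member windows and 17.5% of all. TGATGNAA, a C/EBP-ATF element, stood in 1.67% and 3.14%. Both strands were read in each case, and a match is a description of the letters only.

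SERPINH1, the collagen-specific chaperone, had 7773 and 7508 with BCAA in 769-P and 5811 and 6091 without (0.36, SE 0.05, adjusted p = 6.07e-05). In CAKI-1 it had 9473 and 9461 against 8297 and 8345 (0.19, SE 0.05, adjusted p = 0.0293). The groups did not overlap in either line, though the CAKI-1 call was lost with quantile normalization (adjusted p = 0.0629) and at adjusted p-values of 0.0585 and 0.0501 without the first and second library without BCAA, with the spread from the 7 other libraries. BMP1, the C-proteinase, was lower with BCAA in both (-0.29 in 769-P and -0.19 in CAKI-1). Its CAKI-1 call was lost under 11 of 20 alternatives, among them no filter on low values, scaling to the same total and thinned reads. PCOLCE, which enhances BMP1, had 274 and 277 with BCAA in 769-P and 154 and 157 without (0.82, SE 0.14, adjusted p = 0.000558). The call of PCOLCE was lost under 5 of 20 alternatives, all of them fits without 1 library. In such fits its log2 fold change ran from 0.81 to 0.84. In CAKI-1 PCOLCE overlapped between groups.

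Among the lysyl oxidases, LOXL2 was the most abundant in both lines. It had 21454 and 20542 with BCAA in 769-P and 32230 and 32917 without (-0.63, SE 0.04, adjusted p = 1.23e-07). Its CAKI-1 values were 51945 and 56456 against 67780 and 69096 (-0.34, SE 0.06, adjusted p = 0.0023). LOXL2 was thus lower with BCAA in both lines. LOXL4 had 121 and 109 with BCAA in 769-P and 207 and 215 without (-0.87, SE 0.17, adjusted p = 0.00121), with overlapping groups in CAKI-1 (0.07) and an interaction of -0.94 (95% confidence interval -1.20 to -0.68). LOX had 1090 and 1099 with BCAA in CAKI-1 and 818 and 924 without (0.33, SE 0.09, adjusted p = 0.0194). Its call was lost under 11 of 20 alternatives, among them quantile normalization, thinned reads, the removal of each CAKI-1 library and the spread from all 8 libraries. That spread took in 769-P, where LOX had 50.8 and 47.0 with BCAA and 57.1 and 52.6 without. In 769-P LOX was not called, and neither LOXL1 nor LOXL3 was called in either line.

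Of the 40 members tested in both lines, the BCAA effect differed between the lines for 18 by the limma interaction term, 8 more positive and 10 more negative in 769-P, beside 21.1% of all 19406 genes tested in both (10.9% and 10.1% by direction). A call in 1 line only, as 11 members had in 769-P and 5 in CAKI-1, does not by itself show a difference. Called higher in both lines were 4 members (COL8A1, P4HB, PLOD1 and SERPINH1), beside 8.53% of all genes, and lower in both were 4 (COL4A2, COL18A1, LOXL2 and BMP1), beside 5.83%. Higher in 769-P and lower in CAKI-1 were 2 (COL6A1 and COL6A3), beside 0.675%, and the reverse held for 4 (COL5A1, P4HA1, P4HA2 and PLOD2), beside 0.644%. Many of these calls depended on the processing. Under some of the 12 settings other than leaving out libraries, the CAKI-1 calls of COL5A1, COL6A1, P4HA2, PLOD2, SERPINH1 and BMP1 were lost. So were the 769-P calls of COL6A1 and PLOD2. Of the members with opposite calls, only COL6A3 and P4HA1 kept both under all 12. The interaction was called for each of the 6 members with opposite calls. Of the 18 differences, 15 were called under all 11 settings and with each of the 8 libraries left out. Those of PLOD1, LOXL2 and COL17A1 were not.

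**Figure D4:**
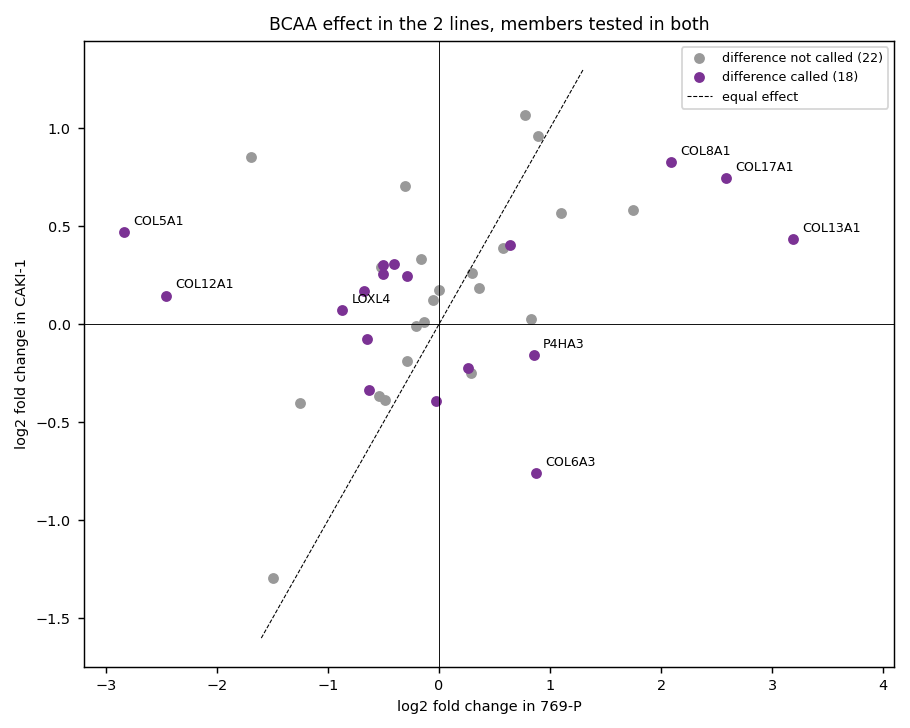
Log2 fold change with BCAA in 769-P (horizontal) against that in CAKI-1 (vertical) for the 40 members tested in both lines. Purple points are the 18 whose effect differed between the lines by the limma interaction term, and the dashed line marks equal effects. COL5A1 and COL12A1 lie at the far left, COL13A1 at the far right and COL6A3 at the lower right.

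Other genes of collagen biology that are no members were counted as lists, to be read beside 20.3% of all genes higher and 18.2% lower in 769-P, and 10.8% higher and 9.05% lower in CAKI-1. Of 20 tested genes for folding, modification and export, 11 were higher and 2 lower in 769-P, and 11 were higher and 2 lower in CAKI-1. SEC24D, a coat protein of the vesicles that carry procollagen, rose in 769-P (log2 fold change 1.45) and in CAKI-1 (0.28). P3H2, a prolyl 3-hydroxylase, rose by 1.40 and 0.42, and ADAMTS3, which removes the N-propeptide, by 0.54 and 0.90. The largest change of this list was a fall, of COLGALT2 in 769-P (-2.05), from 21.1 and 44.0 without BCAA to 4.55 and 9.41 with it. COLGALT2 was not called in CAKI-1 (0.11). Of matrix partners of collagen, 4 of 10 were higher and 1 lower in 769-P, and 4 of 14 higher and 1 lower in CAKI-1. NID1, which links collagen IV to laminin, rose in 769-P (1.05) and CAKI-1 (0.41), while FN1 was higher in 769-P (0.42) and lower in CAKI-1 (-0.47). TNC had the largest change of these partners, lower in 769-P (-3.38, with 10.6 and 0 against 23.6 and 50.1), and was not called in CAKI-1 (-0.04). Of 16 TGF-beta genes, 5 were higher and 6 lower in 769-P, and 3 higher and 1 lower in CAKI-1, where 25% of the list was called beside 19.9% of all genes. TGFB3 rose in both lines (2.67 and 1.36). Of 7 tested collagen receptors, 2 were higher and 2 lower in 769-P, and 1 higher and 2 lower in CAKI-1, with ITGB1, the shared beta subunit, lower in both (-0.21 and -0.26). The largest change of this list in 769-P was a rise of ITGA10 (3.33), from 6.21 and 7.34 without BCAA to 70.5 and 83.8 with it. ITGA10 was not called in CAKI-1 (0.21). In CAKI-1 the largest was a rise of ITGA1 (0.62), which was not called in 769-P (0.03).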

How the data were processed

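RNA-seq of 8 libraries (769-P and CAKI-1, with or without BCAA, 2 per group) was analysed from 1 table per line. The authors deposited a signal per gene, which is reads divided by a median-of-ratios size factor computed within each table, and all values (100%) were whole multiples of 1 read's worth (tolerance 0.001). Per the submitters' processing notes, Trim Galore, TopHat2 2.1.0, SAMtools 1.3.1, HTSeq 0.6.0, DESeq and DESeq2 were used with build hg38. The annotation and strand setting are not given in the sources used here. Symbols came from GENCODE 29 (25032 of 25431 identifiers in 769-P and 23881 of 24190 in CAKI-1), and levels per length use the union of exons.

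limma 3.58.1 in R 4.3.3 (lmFit, eBayes with trend) was fitted within each line to log2(value + 1). Genes with a mean under 1 were left out, and p-values were adjusted by Benjamini-Hochberg over all genes tested and called at 0.05. The interaction was tested in 1 fit over the 8 libraries. Named genes are 10 fixed members, the 12 largest called changes per line, the 8 largest called interactions, other members within their role, and up to 5 called genes per related list and line, whose values in the other line stand beside them. The members and lists were chosen with earlier results of these data known. Alternatives changed the pseudocount (0.1 and 5), filter, scaling, threshold, replicate block and libraries. The recovered reads were also tested with edgeR 4.0.16 and with DESeq2 1.42.0. Leaving out a library with the spread from the other 7 was added after the data were seen. The fits were tested on simulated data. Promoter windows are from RefSeq (GRCh38.p14).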

Additional observations from a re-analysis of the deposited data

Results flagged for a closer look

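The BCAA effect differed between 769-P and CAKI-1 for 18 members by the interaction term of the limma fit (Benjamini-Hochberg adjusted p under 0.05), given as the log2 fold change in 769-P minus that in CAKI-1. It was more positive in 769-P by 2.76 for COL13A1, 1.84 for COL17A1, 1.63 for COL6A3, 1.26 for COL8A1, 1.01 for P4HA3, 0.49 for COL6A1, 0.37 for COL6A2 and 0.23 for PLOD1. It was more negative in 769-P for the others, with differences of -3.30 for COL5A1, -2.60 for COL12A1, -0.94 for LOXL4, -0.84 for COL5A2, -0.81 for P4HA1, -0.76 for P4HA2, -0.71 for COL1A1, -0.57 for COL7A1, -0.54 for PLOD2 and -0.30 for LOXL2. COL5A1, COL6A1, COL6A3, P4HA1, P4HA2 and PLOD2 were called in opposite directions in the lines. Only COL6A3 and P4HA1 kept both calls under all 12 settings other than leaving out libraries. The difference of PLOD1 was lost with median centering (adjusted p = 0.0809). The causes of these differences were not tested.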

How the results depend on the processing

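Of the members called, 21 of 26 in 769-P and 9 of 20 in CAKI-1 were called under all 12 settings other than leaving out libraries, and 17 of 18 interactions under all 11. The median over all genes moved by less than 0.1 with every scaling tried. Counts with a change of at least 2-fold were 989 genes higher and 971 lower in 769-P (4 and 3 members), 303 and 145 in CAKI-1 (0 and 0 members), and 365 more positive and 445 more negative interactions (5 and 2 members). In CAKI-1, quantile normalization gave 1417 genes and 5 members higher, thinning to equal reads 1452 genes higher, 1065 lower and 6 members higher, and no filter on low values 7 members higher. Leaving out 1 library within a line, where the lone sample is assumed to vary like the other group, gave 1173 to 1632 genes higher and 658 to 1456 lower in 769-P (3 to 4 members higher and 2 to 10 lower). In CAKI-1 it gave 0 genes and 0 members in either direction by limma, with 4084 to 5590 genes at an unadjusted p under 0.05. With the spread from the other 7 libraries, 7, 7, 4 and 6 members were higher in CAKI-1 without each library in turn, and 5 to 7 were lower.

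Directions that turned belong to changes not called. COL6A2 in 769-P became 0.00068 in edgeR and ran from -0.093 to 0.046 without 1 library. In CAKI-1, leaving out 1 library gave -0.062 to 0.353 for COL12A1, -0.078 to 0.269 for COL1A2, -0.127 to 0.106 for COL4A1 (also 0.088), -0.0019 to 0.149 for LOXL4, and -0.277 to 0.332 for PCOLCE (also -0.087). COL4A1 was 0.016 after quantile normalization and 0.0055 scaled to the same total. The interaction of COL15A1 became 0.0083 after quantile normalization, 0.312 with thinned reads, 0.0081 in edgeR and 0.00074 in DESeq2, and ran from -0.590 to 0.453 without 1 library. That of COL4A4 became 0.044 in edgeR and 0.042 in DESeq2 and ran from -0.740 to 0.336. That of COL4A5 became 0.125 with a pseudocount of 5 and ran from -1.187 to 0.60. The causes were not tested.

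The deviations of same-numbered libraries had a correlation of -0.015 in 769-P and 0.020 in CAKI-1. Whether libraries with the same replicate number shared a culture or batch was not tested. With the number as a replicate block, 14 members were higher and 15 lower in 769-P, 10 and 7 in CAKI-1, and 7 interactions were more positive and 10 more negative. The block took the calls of COL1A1 (adjusted p = 0.0535 in limma), SERPINH1 (0.0599) and BMP1 in CAKI-1 and the interaction of PLOD1 (0.0769) past the threshold.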
